A study of Homo sapiens with 90 samples.

Results

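Transcripts of 9 genes linked to the transcriptional coactivator YAP or to the matricellular response, CCN1, CCN2, THBS1, ANKRD1, AMOTL2, TGFB2, EDN1, LATS2 and AJUBA, were followed in BxPC-3 cells for a week with and without cetuximab. The genes were chosen by symbol, out of 20036 genes with a probe of their own on the array, and every probe carrying 1 of these symbols was taken, 12 probes in all. The choice was made with earlier results of these data known. Counts among the 9 are therefore set beside those of all genes only as a description. BxPC-3 is an established cell line from a human pancreatic adenocarcinoma, and cetuximab is a therapeutic antibody against EGFR, the receptor for epidermal growth factor. Both arms were cells of this line that had been starved of serum before time 0. The treated arm received cetuximab at 10 µg/ml from time 0 and the other arm served as the negative control. Each arm was sampled at 15 times (time 0, 5, 10 and 30 min, 1, 2, 4 and 8 h, and days 1, 2, 3, 4, 5, 6 and 7) with 3 arrays per arm and time, or 90 arrays in all. The samples come from a single cell line, and whether the 3 arrays of a group represent separate cultures is not stated in the labels, so the p-values refer to the spread among these samples alone, part or all of which may be technical.

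YAP and its paralogue TAZ are coactivators without a DNA-binding domain of their own. When the kinases of the Hippo pathway, among them LATS2, phosphorylate them they are held in the cytoplasm, and when they are not phosphorylated they enter the nucleus and act through the TEAD transcription factors. Genes that respond to YAP and TEAD in many epithelial cells include those of the matricellular proteins CCN1, CCN2 and THBS1, which are secreted into the matrix and signal to cells through integrins and other receptors rather than building its scaffold. TGFB2 and EDN1 encode secreted ligands, ANKRD1 a nuclear ankyrin repeat protein, and LATS2, AMOTL2 and AJUBA act on the pathway itself.

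The DNA element bound by TEAD factors contains GGAATG. Promoter windows from RefSeq (build GRCh38.p14) covering the 250 bases before a gene's start were matched by symbol for 8 of the 9 genes, all but CCN1, and were searched on both strands for GGAATG, for the AP-1 element TGANTCA and for the CArG box of the serum response factor. The windows of 4 genes are shown, each the only window of its gene and each holding the TEAD element. Each reads 5′ to 3′ on the strand of its gene, and the capitals mark GGAATG or its reverse complement.
CCN2: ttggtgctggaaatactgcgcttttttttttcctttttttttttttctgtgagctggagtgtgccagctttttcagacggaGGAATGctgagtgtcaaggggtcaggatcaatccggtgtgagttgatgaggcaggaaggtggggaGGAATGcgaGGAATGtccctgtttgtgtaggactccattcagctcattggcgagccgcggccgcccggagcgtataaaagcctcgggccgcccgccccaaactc
THBS1: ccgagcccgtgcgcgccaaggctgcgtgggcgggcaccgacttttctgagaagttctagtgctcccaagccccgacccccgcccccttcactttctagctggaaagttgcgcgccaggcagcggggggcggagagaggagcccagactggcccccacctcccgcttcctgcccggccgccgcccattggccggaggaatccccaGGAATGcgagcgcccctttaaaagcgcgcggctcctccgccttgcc
ANKRD1: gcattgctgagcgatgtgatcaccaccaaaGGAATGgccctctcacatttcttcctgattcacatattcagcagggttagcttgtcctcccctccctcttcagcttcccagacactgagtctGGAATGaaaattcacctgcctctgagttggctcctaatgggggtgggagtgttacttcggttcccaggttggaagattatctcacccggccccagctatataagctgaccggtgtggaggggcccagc
TGFB2: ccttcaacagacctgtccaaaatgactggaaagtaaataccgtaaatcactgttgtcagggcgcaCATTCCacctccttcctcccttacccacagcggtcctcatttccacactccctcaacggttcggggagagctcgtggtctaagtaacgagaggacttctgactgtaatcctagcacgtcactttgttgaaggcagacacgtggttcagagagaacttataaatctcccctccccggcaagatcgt
The CCN2 window (chr6:131951373-131951622, minus strand) held GGAATG at 169, 104 and 95 bases before the start. A single copy stood 46 bases before the start of THBS1 (chr15:39580829-39581078, plus strand). ANKRD1 (chr10:90921088-90921337, minus strand) had copies at 220 and 128 bases before the start, and an AP-1 element at 195 bases. In TGFB2 (chr1:218345086-218345335, plus strand) the element lay on the other strand, 185 bases before the start. Of all 35116 windows of this length, 11.9% held GGAATG at least once, 0.94% held 2 or more copies and 0.0826% held 3 or more. The AP-1 element occurred in 6.57% of windows and the CArG box in 1.16%. Of the remaining genes, AMOTL2, EDN1 and AJUBA each had a copy in 1 of several alternative windows, LATS2 had none, and no CArG box was found in any of the 12 windows of these 8 genes. None of the matches overlapped. A match describes the sequence and says nothing on whether a factor was bound.

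Levels are given as the log2 probe intensities of the array, and differences as log2 values, cetuximab minus control, ± the standard error of a linear model fitted to all 12735 genes with a probe above background. A difference was called at an adjusted p below 0.05 (limma, two-sided, Benjamini-Hochberg over all genes within a comparison). Background was set at a mean of 4.24 over all arrays, the median of all probe means, and none of the 12 probes lay below it. Array medians ranged from 4.29 to 4.36 and Pearson's r between arrays of a group from 0.978 to 0.989 over all probes, which are not independent. Precision is limited by the number of arrays. Of the markers of pancreatic ductal epithelium, 10 of 10 on the array were above background, and KRT19 averaged 12.0. Of 8 fibroblast markers 4 were above background, the highest, COL1A1, averaging only 4.496, and PDGFRA, PDGFRB, THY1 and FAP lay below it. Of 5 leukocyte markers on the array PTPRC and CD3E were below background and CD68 (7.61), CD14 (5.56) and LYZ (5.22) above it, and CD68 was lower over the days (-0.21, adjusted p = 0.00211).

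Averaged over days 1 to 7 of treatment, 6 of the 9 genes had higher transcript levels in cetuximab-treated cells than in controls. The largest differences were those of EDN1, THBS1 and CCN2, followed by TGFB2, CCN1 and AJUBA. The small difference of AJUBA was called on a single probe and was lost with day 2 left out, as given below. ANKRD1, AMOTL2 and LATS2 did not pass the test. Of all genes tested, 7.39% were called higher and 5.96% lower in this comparison, and the median difference was 0.26 over the 9 genes and 0.003 over all genes. Only 3 arrays per arm were read at any time, but each mean over the days rests on 21 arrays per arm.

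**Figure D1:**
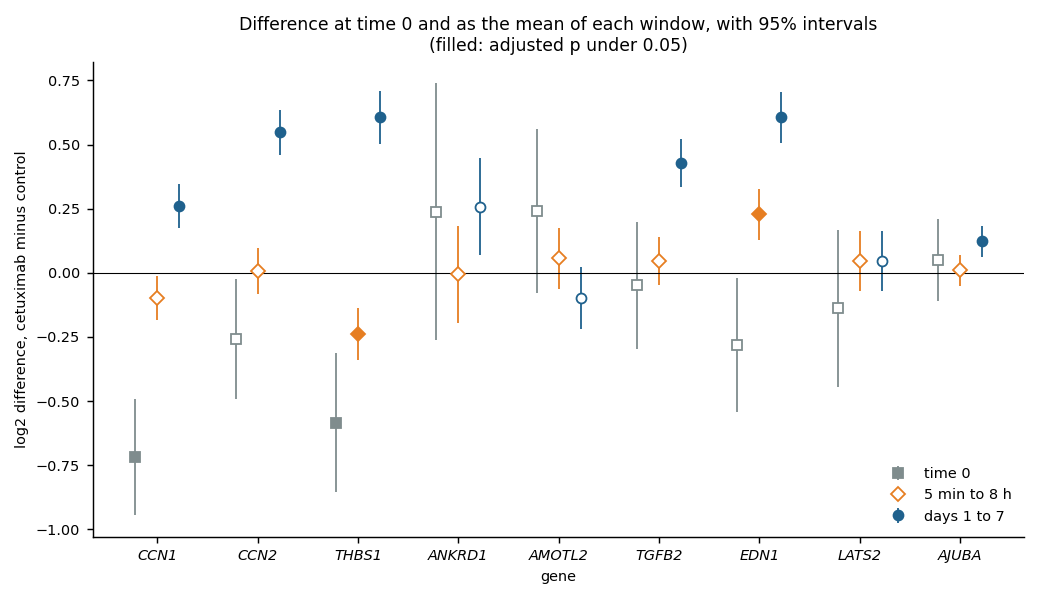
Log2 difference between cetuximab-treated and control cells (vertical axis) for each of the 9 genes (horizontal axis) at time 0 (squares), averaged over 5 min to 8 h (diamonds) and averaged over days 1 to 7 (circles), with 95% intervals and filled symbols where the adjusted p was below 0.05. Over the days THBS1 stands at 0.61 and EDN1 at 0.61, while at time 0 CCN1 lies at -0.72 and THBS1 at -0.59.

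Among the secreted matricellular genes, CCN2, a cysteine-rich protein that binds integrins and growth factors and is widely used as a readout of YAP, was higher by 0.55 ± 0.04 over the days (1.46-fold, adjusted p = 2.33e-16). On day 4, when its difference was largest, control arrays read 5.91, 6.00 and 5.95 and cetuximab arrays 6.88, 6.68 and 6.64. Every treated array lay above every control array then, as on each day from 2 to 6. The day 4 difference was 0.78 ± 0.12 (1.71-fold, adjusted p = 1.81e-06). On day 1 the controls read 5.30, 5.32 and 5.46 and the treated arrays 5.55, 5.37 and 5.33, and on day 7 they read 6.62, 6.90 and 6.77 against 6.80, 7.33 and 7.21, so the arms overlapped at both ends of the week. The differences there were 0.06 ± 0.12 and 0.35 ± 0.12 (adjusted p = 0.948 and 0.164). Without cetuximab replicate 1 on day 7 the latter was 0.50 (adjusted p = 0.0254).

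THBS1 encodes thrombospondin 1, a secreted glycoprotein that activates latent TGF-beta and restrains angiogenesis. Its transcript was higher by 0.61 ± 0.05 over the days (1.52-fold, adjusted p = 1.19e-15). On day 2 the controls read 8.14, 8.02 and 8.10 and the treated arrays 8.81, 9.15 and 9.21, and on day 4 the values were 7.88, 7.78 and 7.95 against 8.81, 9.05 and 8.82. There was no overlap on days 2, 3, 4 or 5, and on day 4 the difference reached 1.03 ± 0.14 (2.04-fold, adjusted p = 5.95e-08), the largest of any of the 9 genes at any time. By day 7 the arrays read 6.82, 7.07 and 7.18 in controls and 7.25, 7.39 and 6.77 with cetuximab. The arms had then come together again, with a difference of 0.12 ± 0.14 (adjusted p = 0.889).

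CCN1, the close relative of CCN2 and likewise a ligand of integrins, differed less. Its mean difference over the days was 0.26 ± 0.04 (adjusted p = 2.48e-06). On day 4 control arrays read 8.51, 8.60 and 8.77 and cetuximab arrays 9.00, 9.09 and 9.35, a difference of 0.52 ± 0.11 (adjusted p = 0.00172). The groups did not overlap from day 2 to day 5 and did so on days 1, 6 and 7. The calls of single days were fragile for this gene. That of day 2 (0.45, adjusted p = 0.0154) was lost without control replicate 2 or cetuximab replicate 2 or 3 (0.37 to 0.43, adjusted p = 0.0683 to 0.175). That of day 3 (0.39, adjusted p = 0.0452) was lost without any of 5 of its 6 arrays, all but control replicate 3, at 0.36 to 0.41. The day 4 call was lost without cetuximab replicate 3 (0.42, adjusted p = 0.0543).

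Of the secreted ligands, EDN1, which encodes the precursor of the vasoconstrictor and growth-promoting peptide endothelin 1, was higher by 0.61 ± 0.05 over the days (1.52-fold, adjusted p = 2.81e-16). On day 4 the controls read 4.39, 4.43 and 4.34 and the treated arrays 5.39, 5.41 and 5.13, a difference of 0.92 ± 0.13 (1.90-fold, adjusted p = 3.86e-07). On day 7 the values were 4.75, 4.74 and 4.79 against 5.26, 5.31 and 5.28. Treated arrays lay above all controls on each day from 2 to 7, and EDN1 was the only member still called on day 7 (0.52 ± 0.13, adjusted p = 0.0204). On days 1, 3, 4, 5 and 6 the control means of EDN1 were within 0.5 of the background threshold, and a difference from such a level can be understated. Without any of its 6 arrays in turn the day 7 difference was 0.51 to 0.53 with adjusted p = 0.0568 to 0.0844, and that of day 6 (0.50, adjusted p = 0.0406) was 0.44 to 0.57 with adjusted p = 0.0534 to 0.25. The call of day 5 (0.52, adjusted p = 0.0188) was lost without control replicate 1 or 3 or cetuximab replicate 1 or 2 (0.40 to 0.54, adjusted p = 0.0514 to 0.233).

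TGFB2, a ligand of the TGF-beta receptors that drives matrix production and epithelial plasticity, was higher by 0.43 ± 0.05 over the days (1.35-fold, adjusted p = 1.90e-11). Its largest difference fell on day 2, against day 4 for the genes above, an order that was not tested. The test for unequal daily differences given below did not pass for TGFB2 (adjusted p = 0.323). On day 2 the controls read 5.14, 5.16 and 5.14 and the treated arrays 5.58, 6.05 and 6.11, and the difference was 0.77 ± 0.12 (1.71-fold, adjusted p = 1.40e-05). On day 3 it was 0.67 ± 0.12 (adjusted p = 1.42e-04). The later days did not pass the test on their own, with 0.36 on day 4, 0.43 on day 5, 0.28 on day 6 and 0.27 on day 7, although the arms did not overlap on days 2, 3, 4, 5 and 7. On day 7 the control values of 5.40, 5.43 and 5.40 lay just under the treated values of 5.63, 5.70 and 5.70. The day 5 difference passed without cetuximab replicate 3 or control replicate 1 (0.52 in both cases, adjusted p = 0.0371 and 0.0451). It also passed with replicate number as a block in the model (adjusted p = 0.0480). With a block of number within time, days 4 and 5 both passed (adjusted p = 0.0481 and 0.0254). With only the 6 arrays compared in the model, by contrast, the calls of days 2 and 3 were lost (adjusted p = 0.131 and 0.0533).

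ANKRD1, a nuclear protein known also from heart muscle and a common target of YAP, varied more between arrays than nearly any other gene. Its residual standard deviation of 0.31 was above that of 98.8% of genes. On day 4 the controls read 8.54, 8.57 and 8.26 and the treated arrays 9.23, 8.95 and 8.78, and on day 2 they read 8.69, 7.88 and 7.96 against 8.84, 8.78 and 7.75. The arms were separate on days 4 and 6 and overlapped on the others. Its mean difference over the days, 0.26 ± 0.09 with a 95% interval from 0.07 to 0.45, was as large as that of CCN1 but did not pass (adjusted p = 0.0581). The call is at the threshold, since leaving out any of 9 of the 42 arrays moved it to 0.27 to 0.31 with adjusted p = 0.0135 to 0.0479. These were replicate 1 of the controls on days 1, 2 and 3 and, with cetuximab, replicate 3 on days 1, 2, 3 and 4 and replicate 1 on days 5 and 7. The difference also passed with replicate number as a block in the model (adjusted p = 0.0402) or as a block within time (adjusted p = 0.0257). Of 22 settings other than single arrays left out, 14 kept it uncalled, with adjusted p up to 0.543. At time 0 the arms differed by 0.24 ± 0.25 in ANKRD1. Relative to that, the mean over the days was 0.02 ± 0.27 (limma, adjusted p = 0.986). Relative to the mean over 5 min to 8 h it was 0.26 ± 0.13 (adjusted p = 0.277).

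Of the genes acting on the Hippo pathway, AJUBA, a LIM protein that binds and inhibits LATS kinases, was higher by only 0.12 ± 0.03 over the days (1.09-fold, adjusted p = 0.00222). Its largest daily difference was on day 2, when the controls read 7.92, 7.50 and 7.84 and the treated arrays 7.99, 8.26 and 8.25, a difference of 0.42 ± 0.08 (adjusted p = 4.75e-04). Control replicate 2 stood lowest, and without it the difference was 0.29 (adjusted p = 0.0765). The other AJUBA probes read only 0.19 and 0.06 on day 2, and with the mean of the 3 probes the day 2 call was lost (0.22, adjusted p = 0.122). With day 2 left out of the mean, the difference over the other days was 0.07 (adjusted p = 0.139). LATS2, the kinase that phosphorylates YAP and is itself induced by it, differed by 0.05 ± 0.06 over the days (95% interval from -0.07 to 0.16, adjusted p = 0.710), and its arms overlapped on all 7 days. AMOTL2, an angiomotin family scaffold that binds YAP and keeps it out of the nucleus, differed by -0.10 ± 0.06 (95% interval from -0.22 to 0.02, adjusted p = 0.334). Both were dim, with 10 of 30 group means of LATS2 and 28 of 30 of AMOTL2 within 0.5 of the background threshold, so a change in either can be understated on these arrays.

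**Figure D2:**
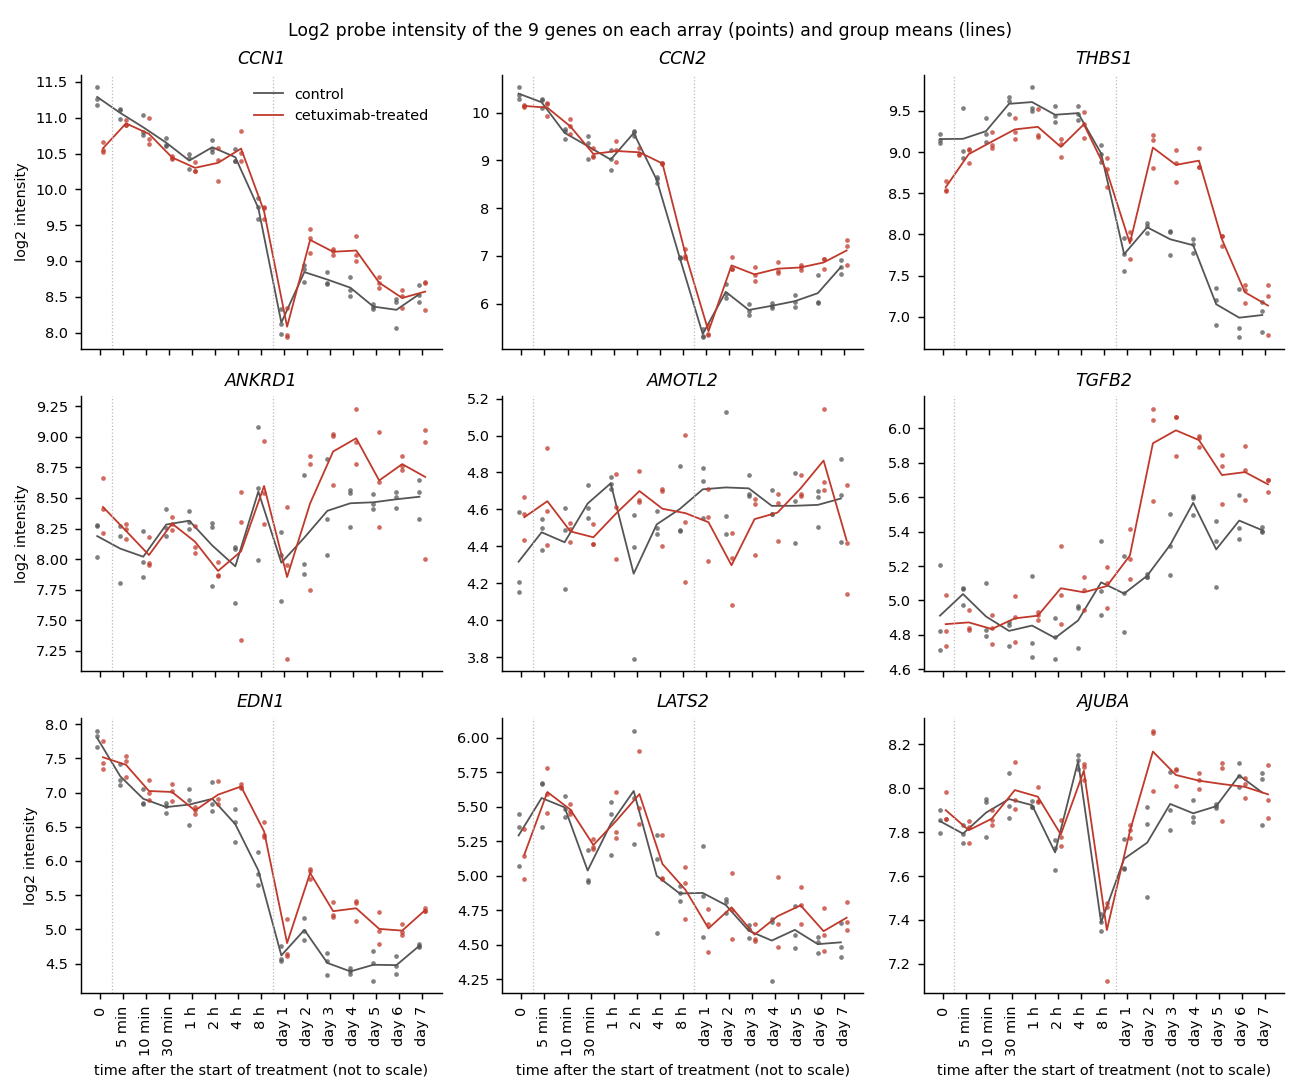
Log2 intensity (vertical axis) of the probe standing for each gene on every array (points) and the mean of each group of 3 (lines) at the 15 times (horizontal axis, not to scale), with control cells in grey and cetuximab-treated cells in red. THBS1 reads about the same in both arms on day 1 and between 8.81 and 9.21 in treated cells on day 2, above the controls at 8.02 to 8.14.

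Taken by day, the differences were small on day 1, widest from day 2 to day 4 and smaller again by day 7. On day 1 none of the 9 genes was called higher by limma, against 0.895% of all genes, and 0 had an unadjusted p below 0.05. On day 2 there were 6 (CCN1, CCN2, THBS1, TGFB2, EDN1 and AJUBA), against 0.95%, and on day 3 there were 5, the same genes without AJUBA, against 1.37%. Day 4 had 4 (CCN1, CCN2, THBS1 and EDN1), against 1.74%. CCN2, THBS1 and EDN1 were called on day 5, against 0.518%, and CCN2 and EDN1 on day 6, against 0.346%, before EDN1 alone on day 7, against 0.581%. None was called lower on any day. These calls rest on the spread of all arrays together. With only the 6 arrays compared in the model, CCN1 was lost on days 2, 3 and 4 and CCN2 on days 2 and 6. TGFB2 was lost on days 2 and 3, AJUBA on day 2 and EDN1 on days 5, 6 and 7. No call was then left on day 6 or 7, so the fall in the daily counts depends on the model. All 3 treated arrays lay above all 3 controls in 30 of the 63 combinations of gene and day and below them in 1, AMOTL2 on day 3, whereas over all genes 7.85% of such combinations had the treated arrays above.

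No gene of the 9 had a linear trend called by limma, against 1.34% of all genes, and 3 (THBS1, LATS2 and AJUBA) had an unadjusted p below 0.05. The lowest adjusted p was that of AJUBA, -0.05 ± 0.02 per day (adjusted p = 0.0976), which passed without replicate 1 of either arm on day 2, cetuximab replicate 1 on day 7 or control replicate 2 on day 7 (-0.06 to -0.05 per day, adjusted p = 0.0403 to 0.0470). A test that the 7 daily differences were unequal, added after these differences had been seen, passed for THBS1 (adjusted p = 1.16e-04) and CCN2 (adjusted p = 0.0332), against 1.22% of all genes. That of CCN2 was lost without any of 8 of the 42 arrays (adjusted p = 0.050 to 0.137), 5 of them on day 1. With a whole replicate number left out, THBS1 did not pass without number 2 or 3 (adjusted p = 0.181 and 0.0777). CCN2 did not pass without number 1, 2 or 3 (adjusted p = 0.0759, 0.540 and 0.516). CCN1 and EDN1, each at adjusted p = 0.152, passed without cetuximab replicate 3 and replicate 1 on day 1, respectively (adjusted p = 0.0419 and 0.0223).

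**Figure D3:**
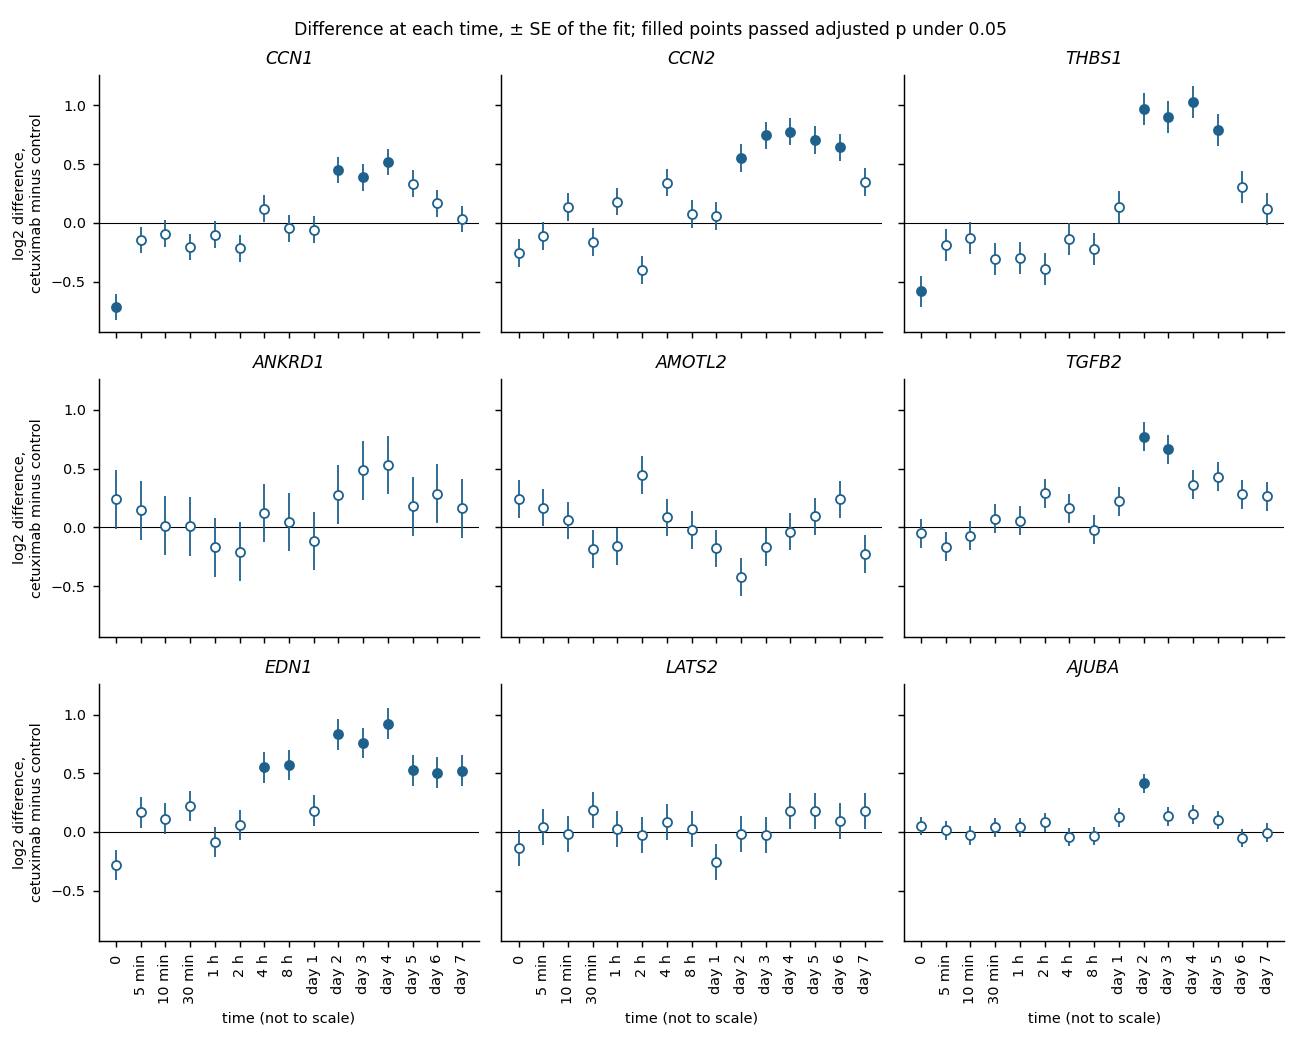
Log2 difference, cetuximab minus control (vertical axis), at each of the 15 times (horizontal axis, not to scale) for the 9 genes, ± the standard error of the fit, with filled points where the adjusted p was below 0.05. THBS1 rises from 0.13 on day 1 to 1.03 on day 4 and returns to 0.12 on day 7, and EDN1 is also called at 4 h and 8 h.

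The arms already differed at time 0, when cetuximab was added. CCN1 arrays read 11.43, 11.18 and 11.26 in controls and 10.65, 10.52 and 10.55 in the treated arm, a difference of -0.72 ± 0.11 (1.64-fold lower, adjusted p = 1.69e-05). THBS1 read 9.22, 9.15 and 9.11 against 8.65, 8.54 and 8.53, or -0.59 ± 0.14 (adjusted p = 0.00591). CCN2, at 10.54, 10.37 and 10.29 against 10.11, 10.16 and 10.14, showed the same separation of arrays but did not pass (-0.26 ± 0.12, adjusted p = 0.278), and EDN1 stood at -0.28 ± 0.13 (adjusted p = 0.294). In all, 2 of the 9 genes were called lower at time 0, against 1.21% of all genes, and none higher. Relative to this starting difference, the late window was higher in CCN1 by 0.98 ± 0.12, in CCN2 by 0.81 ± 0.13, in THBS1 by 1.19 ± 0.14, in EDN1 by 0.89 ± 0.14 and in TGFB2 by 0.48 ± 0.13, which made 5 of 9 genes against 1.93% of all. The last of these calls (adjusted p = 0.0223) was lost without control replicate 3 or cetuximab replicate 2 or 3 at time 0 (0.33 to 0.46, adjusted p = 0.0631 to 0.251). AJUBA, called in the late window as it stands, was at 0.07 ± 0.09 on this scale (adjusted p = 0.757).

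Between 5 min and 8 h the arms were closer. Over the 7 early times EDN1 was higher by 0.23 ± 0.05 (adjusted p = 8.21e-04) and THBS1 lower by 0.24 on the log2 scale (-0.24 ± 0.05, adjusted p = 7.14e-04), which made 2 of 9 genes against 10.1% of all genes called in either direction. The other 7 lay between -0.10 for CCN1 and 0.06 for AMOTL2. EDN1 was called at 4 h, against 1.71% of all genes in either direction, when the controls (replicates 2, 3 and 4) read 6.28, 6.57 and 6.76 and the treated arrays 7.06, 7.12 and 7.08. At 8 h, against 0.503% of all genes, the values were 6.13, 5.81 and 5.65 in controls and 6.39, 6.57 and 6.34 in treated cells. The arms were separate at both times, with differences of 0.55 ± 0.13 (adjusted p = 0.0130) and 0.57 ± 0.13 (adjusted p = 0.0203). The first call was lost without replicate 2 of either arm (0.42 and 0.53, adjusted p = 0.160 and 0.0675), and the second without replicate 2 of either arm or control replicate 3 (0.46 to 0.54, adjusted p = 0.124 to 0.180). With the difference at time 0 as the reference, an alternative added after the data were seen, CCN1 (0.62 ± 0.12) and EDN1 (0.51 ± 0.14) were called higher in the early window, 2 of 9 genes against 1.27% of all genes in either direction, and THBS1 was at 0.35 ± 0.14 (adjusted p = 0.299).

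The difference between the arms changed from the early to the late window in 5 of the 9 genes. The late window exceeded the early window by 0.85 ± 0.07 in THBS1 (adjusted p = 1.04e-14), 0.54 ± 0.06 in CCN2 (adjusted p = 5.91e-10), 0.38 ± 0.07 in TGFB2 (adjusted p = 1.73e-05), 0.38 ± 0.07 in EDN1 (adjusted p = 6.65e-05) and 0.36 ± 0.06 in CCN1 (adjusted p = 1.12e-05). Of all genes, 4.23% were called in this direction.

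For CCN1, CCN2 and EDN1, these differences were small beside a fall over the week that both arms showed. In control cells, 5 of the 9 genes were lower on days 1 to 7 than at time 0, against 21.1% of all genes, and 2 were higher, against 24.9%. The changes were -4.33 ± 0.09 for CCN2, -3.19 ± 0.10 for EDN1, -2.78 ± 0.09 for CCN1, -1.61 ± 0.10 for THBS1 and -0.66 ± 0.12 for LATS2. TGFB2 rose by 0.41 ± 0.09 (adjusted p = 1.54e-04) and the dim AMOTL2 by 0.35 ± 0.12 (adjusted p = 0.0128). The latter call was lost without control replicate 1 or 2 at time 0 (0.27 and 0.29, adjusted p = 0.137 and 0.102). ANKRD1 (0.16 ± 0.19) and AJUBA (0.04 ± 0.06) did not pass. Over the days the control arrays of CCN2 ran from 5.30 to 6.90 with a median of 6.02, all of them below its time 0 arrays at 10.29 to 10.54. Those of EDN1 ran from 4.25 to 5.16 against 7.66 to 7.90 at time 0, and those of CCN1 from 7.98 to 8.94 against 11.18 to 11.43.

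The fall in the controls was compared in steps and was not steady within them, as CCN2 averaged 9.02 at 1 h and 9.57 at 2 h. From time 0 to 2 h CCN1 (-0.70), CCN2 (-0.83) and EDN1 (-0.89) fell, 3 of 9 genes against 5.54% of all genes. From 2 h to 8 h 6 genes fell, against 18.2%, led by CCN2 at -2.61 and EDN1 at -1.05 and including CCN1, THBS1, LATS2 and AJUBA, while TGFB2 rose by 0.32. From 8 h to day 1 CCN1 and CCN2 (both -1.60), EDN1 (-1.24) and THBS1 (-1.22) fell, 4 of 9 against 17.1%, and AJUBA rose by 0.29. Day 7 was then compared with day 1, and the course between them was not steady either. In controls CCN1 averaged 8.14 on day 1, 8.85 on day 2 and 8.54 on day 7, and THBS1 averaged 7.76, 8.09 and 7.02. By day 7 CCN2 stood higher by 1.40 ± 0.12, CCN1 by 0.40 ± 0.11, TGFB2 by 0.37 ± 0.12 and AJUBA by 0.30 ± 0.08, 4 of 9 against 22%. THBS1 stood lower (-0.74). The steps of AJUBA are those of its brightest probe, and its other probes were not called in any of them. They read -0.04 and -0.13 from 2 h to 8 h, -0.17 and 0.32 from 8 h to day 1, and 0.04 and -0.18 from day 1 to day 7.

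**Figure D4:**
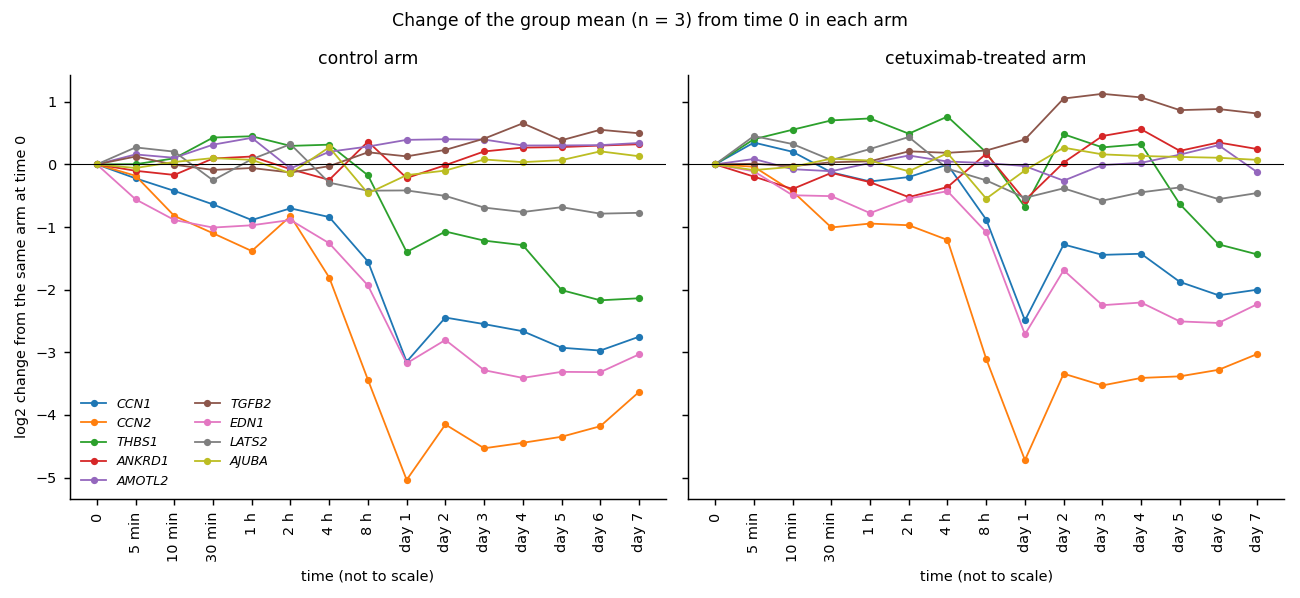
Change of the group mean of 3 arrays from time 0 of the same arm, in log2 units (vertical axis), at the 15 times (horizontal axis, not to scale) for the 9 genes, with control cells on the left and cetuximab-treated cells on the right. CCN2, EDN1 and CCN1 fall in both arms, with -4.33, -3.19 and -2.78 on average over the days in controls, while TGFB2 ends above its start in both.

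The same genes fell in cetuximab-treated cells. Over the days, against their own time 0, the changes were -3.53 for CCN2, -2.30 for EDN1, -1.80 for CCN1, -0.47 for LATS2 and -0.42 for THBS1, 5 of 9 genes against 24.3% of all genes, and TGFB2 rose by 0.89, 1 of 9 against 25.2%. AMOTL2 stood at 0.01 ± 0.12. The test of the difference between the arms in this change is that of the late window relative to time 0 given above, which was passed by CCN1, CCN2, THBS1, EDN1 and TGFB2 and not by LATS2 (0.18 ± 0.16, adjusted p = 0.654) or AMOTL2 (-0.34 ± 0.17, adjusted p = 0.319). As the arms differed at time 0, the smaller fall of CCN1 and THBS1 in treated cells reflects both ends of the course, with late differences of 0.26 and 0.61 and starting differences of -0.72 and -0.59.

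CCN2 and AJUBA had more than 1 probe. The dimmer CCN2 probe, with a mean of 6.54 against 7.86 for the probe used above, gave 0.42 ± 0.07 over the days (adjusted p = 1.10e-06 with every probe tested on its own) and -3.70 for the course of the controls. On day 2 it read a difference of only 0.12 ± 0.18 (adjusted p = 0.906), where the brighter probe gave 0.55, and with the mean of both probes the day 2 call was lost (0.34, adjusted p = 0.119). For AJUBA the probes disagreed. The brightest gave 0.12 ± 0.03 over the days, a dimmer probe to the same transcript -0.04 ± 0.05 (adjusted p = 0.694) and a probe to another transcript 0.10 ± 0.05 (adjusted p = 0.194), and with the mean of the 3 the difference was 0.06 (adjusted p = 0.144). The AJUBA call thus rests on a single probe.

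Over the 30 group means, the levels of the genes that fell ran closely together. Pearson's r was 0.97 between CCN1 and EDN1, 0.96 between CCN1 and CCN2 and 0.96 between CCN2 and EDN1, and LATS2 followed them at 0.88 to 0.89. THBS1 ran with CCN1 at 0.86 and with CCN2 at 0.72. TGFB2 ran opposite to CCN1, CCN2 and EDN1 at -0.69 to -0.67 and with ANKRD1 at 0.74. These coefficients describe 30 means that share the same time course, most of it the fall after time 0. Among all other genes, the profile most like that of both CCN1 (r = 0.972) and CCN2 (0.978) was that of ERRFI1, which encodes a feedback inhibitor of EGFR. The nearest profile to EDN1 belonged to GADD45A (0.960), a stress-response gene, that to THBS1 to CAVIN1 (0.952), a coat protein of caveolae, and that to LATS2 to TSC22D2 (0.951). TGFB2 was nearest to CDH2 (0.953), the gene of N-cadherin, and then to FILIP1L (0.939). ANKRD1 and AJUBA had looser neighbours, BASP1 (0.819) and CABYR (0.876), and the dim AMOTL2 had none above MTA2 at 0.618.

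The wider gene lists around these members moved less uniformly over the days. These lists too were chosen with earlier results of these data known, and their counts were not tested. Of 20 other YAP and TEAD targets, 16 were above background, of which 5 were higher and 2 lower with a median of -0.01, against 7.39% and 5.96% of all genes. The largest of these were CRIM1 (0.25), a transmembrane regulator of bone morphogenetic proteins, the receptor kinase AXL (0.19), GADD45A (0.19) and the focal adhesion protein TNS3 (0.18). Among 21 measured components of the Hippo pathway, 4 were higher and 1 lower. The largest of these 5 were the TEAD cofactor VGLL1 (0.32), the scaffold WWC1 (0.21), the LIM protein WTIP (0.16), a relative of AJUBA, and the kinase MAP4K4 (-0.16). Of the other matricellular genes only 7 of 18 were above background, and the single call was that of SPP1, or osteopontin, which was lower by 0.35 on the log2 scale (-0.35 ± 0.05).

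Partners of the secreted members were called in both directions, where 7.39% of all genes were higher and 5.96% lower. In the TGF-beta pathway 2 of 12 measured genes were higher, TGFB3 (0.35), a sister ligand of TGFB2, and the receptor TGFBR2 (0.16), and 2 lower, the latent TGF-beta binding protein LTBP4 (-0.26) and the transducer SMAD3 (-0.12). Of 7 measured receptors of thrombospondin the integrin ITGAV was higher (0.15) and ITGA3 lower (-0.12), and neither of the 2 measured genes of the endothelin system was called. Targets of the serum response factor, which CCN1, CCN2 and THBS1 are also known to be in other cells, were listed with its partners MRTFA and MRTFB. Of the 13 measured genes 6 were higher, against 7.39% of all genes, and none lower, with a median of 0.11. TAGLN, an actin-binding protein of smooth muscle, led with 1.19 ± 0.04, followed by FILIP1L (0.57), the myosin light chain MYL9 (0.50) and ACTA2 (0.32), the smooth muscle actin. At time 0, 2 of the 13 were already called lower, against 1.21% of all genes. These were TAGLN (-0.50, adjusted p = 0.00221) and SRF, the gene of the factor itself (-0.40, adjusted p = 0.0224). Over the days, genes induced by ERK, the kinase downstream of EGFR, went the other way. Of 14, 11 were lower, against 5.96% of all genes, and 1 was higher, with a median of -0.31. Among those lower were EGR1 (-0.99), FOSL1 (-0.45), DUSP5 (-0.45) and DUSP4 (-0.45). However, 4 of the 14 were already called lower at time 0, against 1.21% of all genes. These included DUSP5 (-0.67), DUSP4 (-0.60) and FOSL1 (-0.53), each by more than over the days. EGR1 was not called at time 0 (0.22, adjusted p = 0.496).

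Fibroblasts express several of the 9 genes strongly, so the markers of that cell type were set beside the result. Of the 4 fibroblast markers above background 1 was called over the days, LUM, higher by 0.24 ± 0.06 at a mean level of 4.26, next to the threshold. The mean level of all 8 markers ran from 3.96 to 4.25 on the control arrays of days 1 to 7 (median 4.15) and from 3.98 to 4.32 on the treated arrays (median 4.23), close to or under the background threshold in both arms, and PDGFRA, PDGFRB, THY1 and FAP were below it.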

How the data were processed

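The authors deposited a table of log2 values per probe, of which the scale was inferred from the range of 0.26 to 13.8, since no label gives it. In the submitters' processing notes limma is listed, without a version. How background was corrected and arrays were normalized is not given in the sources used here. RNA had been labelled with biotin and hybridised to Illumina HumanHT-12 v4 arrays. Values were used as deposited, with arrays grouped by arm and time from the labels and all of them kept. The platform annotation gave 1 symbol for 30096 of the 47292 probes, several for 8 and none for 17188, and older symbols were updated through RefSeq. Probes with a mean under 4.24 were left out as background, because no detection p-value was used, and the brightest probe stood for a gene, which left 12735 genes. The linear model (limma 3.58.1, R 4.3.3) had 30 group means as its terms, used the 90 arrays together with moderated variances, and left 60 degrees of freedom (two-sided, Benjamini-Hochberg over all genes within a contrast). The procedure was tested on simulated data in which arrays varied independently, so that test does not cover correlation between same-numbered arrays.

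The 9 genes, the gene lists and the tests were chosen with earlier results of these data known, so their counts are read against all genes and not tested as lists. Named were all 9 genes with every probe, up to 4 called genes of each list with the largest late difference, and for each member the other genes with the highest r over the group means, of which the first or the first 2 are given. Alternatives were median centring, quantile normalization, no filter or a mean of at least 5, the mean of a gene's probes or each probe on its own, array weights, a trended robust prior, only the arrays compared, a replicate block in 2 forms, each replicate number, time of a window or array left out, and other references for time 0. Promoter windows were searched with a script in Python.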

Additional observations from a re-analysis of the deposited data

Results flagged for a closer look

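In 5 genes the difference between cetuximab-treated and control cells was not the same in the 2 time windows, by a test of the change itself (days 1 to 7 minus 5 min to 8 h, limma). For THBS1 the change was 0.85, from -0.24 in the early window to 0.61 in the late window. CCN2 changed by 0.54, from 0.01 to 0.55. In TGFB2 the change was 0.38, from 0.05 to 0.43. EDN1 changed by 0.38, from 0.23 to 0.61, and so was already higher in treated cells in the early window. For CCN1 it was 0.36, from -0.10 to 0.26. All groups held 3 arrays, too few to look for single outlying arrays by the gap to their neighbours.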

How the results depend on the processing

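Of 633 counts of called genes among the 9, taken under all alternatives, 609 stayed within 1.5 times the count reported, and no call changed its sign. These alternatives include each of the 90 arrays left out in turn, which can move a mean over the days only a little. A count of 0 that stayed at 0 was taken as unchanged. The share therefore depends on which alternatives were counted and does not measure how firm the calls are. With the replicate block, 7 genes were called in the late window instead of 6, ANKRD1 being added (adjusted p = 0.0402), 24 instead of 23 calls were made at single times, TGFB2 on day 5 being added, and it changed no other call. With the block of number within time ANKRD1 in the late window (adjusted p = 0.0257), TGFB2 on days 4 and 5 (adjusted p = 0.0481 and 0.0254) and the trend of AJUBA (adjusted p = 0.0474) were called too. The main model did not pair the arms by replicate number, since the labels do not say what a shared number stands for. Same-numbered arrays nevertheless tended to deviate alike. Their r ran from -0.04 to 0.57 and was over 0.1 in 26 of 43 pairs. In 40 pairs r was higher with the own number than with others. That count only restates the sign of r, since deviations from the mean of 3 arrays cancel within a group. The calls that a block adds thus depend on whether replicate number enters the model. The test for unequal days, 2 genes as reported, called 1 without the filter, 1 with only the arrays compared and 4 with the block of number within time, and between 0 and 3 with a replicate or an array left out. The trend, with 0 genes, called 1 with array weights and 1 with the block within time, and 0 to 1 with arrays left out. The single times gave 10 calls with only the 6 arrays compared and 13 to 24 with arrays left out. The early window gave 0 to 2, fewest without replicate 2, and time 0 gave 1 to 2, fewest without replicate 2 or 3.

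AJUBA was not called in the late window without replicate 2 (0.09, adjusted p = 0.155), and ANKRD1 was called there under 8 other settings (0.26 to 0.32), the 2 forms of the block among them. Without replicate 2, THBS1 at time 0 (-0.58, adjusted p = 0.203), EDN1 in the early window (0.19, adjusted p = 0.0888) and THBS1 there (-0.23, adjusted p = 0.0566) were not called, nor was THBS1 at time 0 without replicate 3 (-0.59, adjusted p = 0.0572). Over all genes, 316 calls at time 0 became 540 with array weights, 493 with the block within time, 48 with only the arrays compared, and 120 and 42 without replicates 1 and 2. The 171 trends became 106 with only the arrays compared, 292 with the block within time and 60, 46 and 85 without replicates 1, 2 and 3. Without these replicates the 1280 early calls became 751, 309 and 763, and the 890 changes between windows 482, 377 and 482. The 465 late calls relative to time 0 became 192 and 109 without replicates 1 and 2, and the 1700 late calls 920 without replicate 2. With 3 arrays per group, the smallest difference called at a single time was 0.39, and AMOTL2 and LATS2 lay too near background for a stricter filter to keep them.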
